A study of Mus musculus with 2 samples.

Results

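The 126 droplets described here carried Plet1 and Gata6 together and met limits on 6 genes of differentiated upper follicle, interfollicular and sebaceous cells. They were 126 of 16453 filtered droplets, 62 of 8661 in the PADI4 WT library and 64 of 7792 in the library labelled PADI4 cKO. A filtered droplet had 2000 to 60000 UMIs (unique molecular identifiers, each marking 1 captured transcript), 1000 to 8000 genes and at most 20% mitochondrial UMIs. A member had at least 2 Plet1 UMIs and at least 1 Gata6 UMI. It also had fewer than 5 Krt79 UMIs per 10000 UMIs of the droplet, fewer than 50 Krt1 plus Krt10 UMIs per 10000, and fewer than 4 UMIs of Pparg, Aldh3a1 and Acsbg1 in sum. These 8 genes chose the droplets, so their values are given as a description.

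The study followed hair follicle (HF) epithelium of mouse back skin at postnatal day 1 by droplet single-cell RNA sequencing, and asked what is altered when Padi4 is deleted from keratinocytes. The description of both libraries names K14-Cre Padi4 fl/fl mice with a tdTOMATO reporter, the genotype label gives 1 library as WT and the other as PADI4 cKO, and the study's text describes its WT profiling as of K14-Cre;tdTomato cells, a line then crossed to Padi4 fl/fl mice for the cKO. K14-Cre recombines in keratinocytes and their descendants, live tdTOMATO-positive cells were sorted from the dermal fraction after dispase had separated the epidermis, and both libraries belong to batch 1. There was 1 library per genotype and the number of animals behind each is not given, so no test between genotypes was possible and intervals below are 95% intervals for counting error only.

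The junctional zone is the stretch of the upper HF between the opening of the sebaceous gland and the infundibulum. It holds progenitors marked by Lrig1, a transmembrane brake on receptors of the EGF family, and by Plet1, a surface protein of placental and follicle epithelium. Gata6 encodes a zinc finger transcription factor that marks the differentiating duct above the gland, and Krt79 is a keratin of the same duct. Below lie the outer root sheath (ORS) and the proliferating lower follicle, where Shh signals through its receptor Ptch1 and Lef1 relays Wnt signals. In the mouse genome (mm10, GENCODE M21), Plet1 lies on chr9:50494525-50505482 on the plus strand and Lrig1 on chr6:94604529-94700158 on the minus strand, both protein-coding.

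Padi4, the targeted gene, gave 1 UMI in the WT members and 1 UMI in the cKO members. Among the other droplets it was counted 112 times in the WT library (0.859 CPM, the depth-scaled UMI count used throughout, 0.707 to 1.03) and 94 times in the library labelled cKO (0.719 CPM, 0.581 to 0.880). Padi4 transcripts were therefore not lost from that library, the intervals overlap, and the deleted exons are not stated in the sources used here. These 3′ counts do not check the label unless the counted end of the transcript lies in the deleted part.

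The libraries held 143938990 and 143945294 UMIs, and 17 barcodes were shared between the filtered droplets of both libraries, none of them a member's. Members were deeper than the rest. Their median was 16495 UMIs in the WT library (6213 to 48420), beside 14088 in the other droplets, and 25820.5 in the cKO library (4539 to 56916), beside 15710.5. With the droplets of a library divided into 4 equal bins by depth, the WT bins held 10, 12, 16 and 24 members from the shallowest to the deepest. In the cKO library they were 7, 5, 8 and 44, and the share of droplets meeting the rule was 2.26% in the deepest bin (1.65 to 3.02) against 0.257% to 0.411% in the other bins. A doublet score was cut to mark the top 6% of filtered droplets in each library. It marked 6 of the 62 WT members (9.68%, against 5.94% of other WT droplets) and 16 of the 64 cKO members (25%, against 5.64%). The part of depth and of doublets in the results below was not tested. Without the droplets the score marked, 56 and 48 members remained, and 164 genes were higher and 336 lower than in other droplets by the rule given further on.

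**Figure D1:**
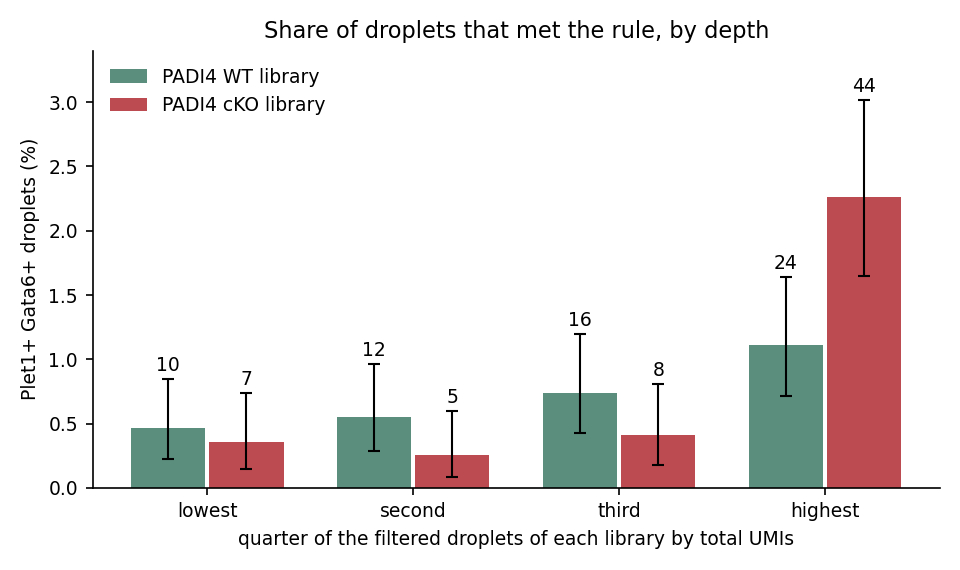
Percentage of filtered droplets that met the Plet1 and Gata6 rule (y axis) in 4 equal bins of total UMIs per droplet (x axis), PADI4 WT library in green and PADI4 cKO library in red. Bars are shares, error bars are exact binomial 95% intervals, and the number above each bar is the count of members; 44 of the 64 cKO members lie in the deepest bin.

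The rule was met in 0.716% of WT droplets (0.549 to 0.917) and 0.821% of cKO droplets (0.633 to 1.05). Plet1 reached 2 UMIs in 1027 WT and 938 cKO droplets and Gata6 1 UMI in 609 and 630, with 169 and 171 droplets meeting both. Gata6 was found in 16.5% of WT droplets with at least 2 Plet1 UMIs (14.2 to 18.9) and in 4.56% of those with none (4.04 to 5.11). In the cKO library the shares were 18.2% (15.8 to 20.9) and 5.73% (5.12 to 6.39). Both genes belong to the rule and the shares were not matched for depth, so they are a description. Droplets that met every limit but held no Gata6 UMI had medians of 18418 and 18746 UMIs. All droplets that were not members had 14088 and 15710.5. Of the droplets with both genes, the sebaceous limit removed 85 and 94 and the Krt79 limit removed 60 and 53, with 38 and 40 removed by both. The Krt1 and Krt10 limit removed none.

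Most members sat at the edge of the rule. Plet1 was at exactly 2 UMIs in 38 of 62 WT and 42 of 64 cKO members, and at most 8 and 15. Gata6 was at exactly 1 UMI in 43 and 42 members and at most 4 in either library. Just outside, 84 WT and 83 cKO droplets had 1 Plet1 UMI and met every other limit, and 703 and 653 lacked only a Gata6 UMI. Krt79 was absent from 38 and 39 members, its highest member stood at 4.87 and 4.65 per 10000, and the lowest droplet left out for it at 6.13 and 5.08. The summed sebaceous genes were at 0 in 32 and 39 members and at 3 in 7 and 9, with 8 and 6 droplets left out at exactly 4.

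As chosen, Plet1 stood at 146 CPM in WT members and 110 CPM in cKO members, against 33.0 and 31.3 CPM in the other droplets. Gata6 stood at 79.7 and 54.0 CPM, against 6.07 and 7.09. Of the genes that the rule limited, Krt79 was at 56.9 and 29.3 CPM in members against 149.9 and 125 in the rest, and Pparg, the regulator of sebocyte differentiation, at 13.1 and 10.9 against 51.0 and 60.7. Acsbg1, an acyl-CoA synthetase, was at 25.4 against 25.1 CPM in WT and at 10.9 against 22.4 in cKO. Krt10, whose limit removed no droplet, was at 28.9 against 66.0 in WT and 31.01 against 36.4 in cKO. Background RNA in droplets under 100 UMIs held Plet1 at 31.01 and 27.6 CPM and Gata6 at 4.10 and 4.28 CPM. The share of free RNA in a droplet, judged from collagen transcripts, was at most 11.6% and 10.3%. In a cluster led by the hair shaft gene Krt35 (cluster 15), which should lack these genes, Plet1 stood at 3.60 and 0.936 CPM and Gata6 rested on 1 UMI per library.

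Lrig1, the junctional zone marker that the rule did not use, was present in nearly all members but was not particular to them. It was counted in 61 of 62 WT members (98.4%, 91.3 to 99.96) and 58 of 64 cKO members (90.6%, 80.7 to 96.5). Among the other droplets it was counted in 62.2% and 62.8%. With each droplet thinned to 2000 UMIs the shares were 66.1% of WT members (53.0 to 77.7) against 37.8% of the rest, and 45.3% of cKO members (32.8 to 58.3) against 37.1%. ORS droplets of the same libraries, taken as Krt15 of at least 5 per 10000 with Sox9 and no Plet1, carried Lrig1 in 63.2% and 65.3% after the same thinning. Collagen-rich droplets were no Lrig1-free background, since 11 of 16 in the WT library and 8 of 11 in the cKO library had a UMI. Cluster 15 had Lrig1 at 3.60 and 3.74 CPM, far under the 526 and 403 CPM of the members.

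The label of junctional zone cells was not borne out for the members as a whole. Of 10 genes fixed as junctional zone and upper follicle markers, 8 were tested and none was higher past log2 1 in both libraries. Only 0.82% of all genes tested were, so that a count of 0 among 8 genes says little by itself. The droplets compared with also hold the upper follicle droplets that are not members. The summed level of the 10 genes was 4514 CPM in WT members against 2670 in the rest (log2 0.76), and 2828 against 2495 in cKO members (log2 0.18). Fst, which encodes the activin and BMP antagonist follistatin, came nearest in WT at log2 1.71, with 0.80 in cKO. Lgr6, a receptor of upper follicle progenitors, gave 0.87 and 0.82, Sostdc1, a secreted BMP and Wnt antagonist, 0.83 and 0.11, and Krt17 0.64 and 0.04. The droplets are therefore called Plet1+ Gata6+ droplets here and given no other name.

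Clustering of all filtered droplets without the 8 rule genes gave 23 clusters, and the members were spread over 11 of them in each library. Clusters were grouped by the marker lists. Clusters 3, 10 and 11 had at least 5 of the 10 upper follicle markers raised and are called the upper class, whatever other lists were raised. Cluster 3 had 6 upper follicle, 9 basal, 7 sebocyte and 5 ORS markers raised. Cluster 10 had 5 upper follicle, 7 basal and 8 ORS markers raised, and cluster 11 had 5 upper follicle, 11 basal and 9 suprabasal markers. The class name therefore stands for the count of 1 list and not for a cell type. Clusters 0, 6, 8, 9, 12 and 14 had at least 3 lower follicle markers raised and fewer than 3 of every other cell type list, and are called the lower class, and the remaining clusters are called the other class. Of the WT members 25 were in the upper class (40.3%, 28.1 to 53.6), 18 in the lower class (29.0%, 18.2 to 41.9) and 19 in the other class. Of the cKO members 12 were in the upper class (18.8%, 10.1 to 30.5), 37 in the lower class (57.8%, 44.8 to 70.1) and 15 in the other class. The doublet score marked 1 of the 25, 0 of the 18 and 5 of the 19 in WT. In cKO it marked 0 of the 12, 5 of the 37 and 11 of the 15.

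The densest cluster of members lay in the lower class. Cluster 6, led by Tafa2, Npr3, Mme, Chst2 and Prss35, held 12 WT members (3.52% of its droplets, 1.83 to 6.07) and 18 cKO members (3.01%, 1.79 to 4.72). Cluster 8, led by genes such as the Wnt target Sp5, Wnt7a and Frem1, held 6 (1.53%) and 14 (3.08%). In the upper class, cluster 3 had the highest Plet1 of the 23 clusters in both libraries (102 and 124 CPM) and Gata6 at 46.9 and 51.0 CPM, and held 9 members in each library. Cluster 11, led by Krt1, Stfa1, Stfa3 and Krt77, held 14 WT members and 1 cKO member, with 598 WT and 90 cKO droplets in it. The other-class members were most frequent in cluster 4 (9 and 2) and cluster 7 (4 and 8). Upper-class members were shallow, with medians of 11175 and 11070.5 UMIs, and lower-class members deep, with medians of 20776 and 27606. When the whole rule was applied after thinning to 5000 UMIs, with 847 WT and 365 cKO droplets left out as shallower, 13 of 7814 WT and 9 of 7427 cKO droplets met it. Of these, 9 and 4 were among the members, 7 in each library were in the upper class, and 4 and 1 were in the lower class.

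**Figure D2:**
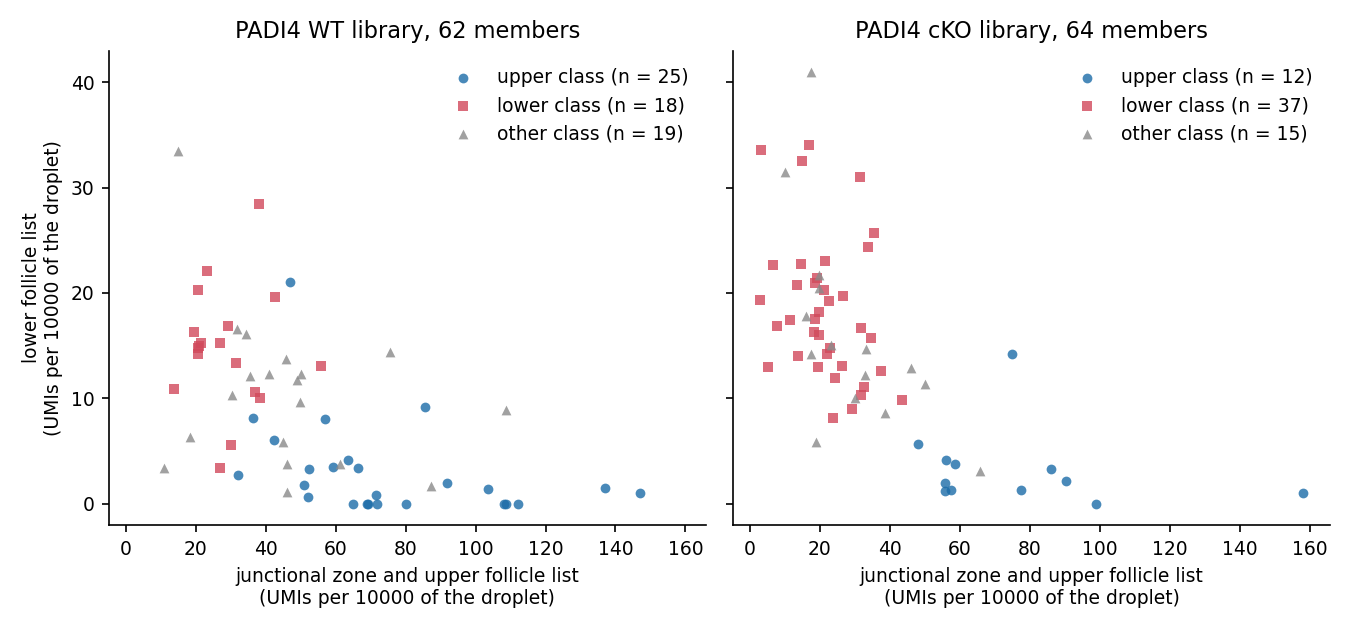
Each point is 1 Plet1+ Gata6+ droplet, placed by its summed junctional zone and upper follicle list (x axis) and its summed lower follicle list (y axis), both in UMIs per 10000 UMIs of the droplet, for the PADI4 WT library (left) and the PADI4 cKO library (right). Upper-class members (blue circles, 25 and 12) spread along the x axis and lower-class members (red squares, 18 and 37) stand higher on the y axis. The other class (grey triangles, 19 and 15) lies between and among them. The doublet score marked 5 of the 19 and 11 of the 15 other-class members. Both lists also helped to set the classes.

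Few of a member's nearest droplets in expression space were members. Of the 15 nearest droplets of a WT member, 4.09% were members on average, and of a cKO member 3.85%, beside 0.766% of all droplets. No member stood among the 15 nearest of 37 of 62 WT and 40 of 64 cKO members. In the lower class the share was 6.30% and 5.41%, in the upper class 3.73% and 1.67%. These shares cannot tell 1 group from several, because 703 WT and 653 cKO droplets met every limit but held no Gata6 UMI. A member's nearest droplets can thus be like it without being members. The clusters and neighbours rest on the same counts as the values below, so differences between classes are descriptions. The cell type lists themselves set the classes. Contrasts between classes in these lists and in their genes, such as Lrig1, Fst, Krt15, Krtdap and Ptch1, were therefore fixed in part by the grouping.

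Lrig1, Cdh13 and Krt15 stood higher in upper-class than in lower-class members. Lrig1 ran from 2.27 to 28.8 UMIs per 10000 in the 25 WT upper-class members (median 10.0) and from 0 to 5.50 in the 18 lower-class members (median 2.30), so the ranges overlapped. In the cKO library it ran from 5.67 to 22.8 (median 13.99) in 12 and from 0 to 10.7 (median 1.21) in 37. Summed, Lrig1 stood at 984 CPM against 226 in WT and 1494 against 215 in cKO. Cdh13, which encodes the truncated cadherin T-cadherin, was counted in all 25 and all 12 upper-class members but in 3 of 18 and 7 of 37 lower-class members. Krt15, a keratin of basal and ORS cells, stood at 2418 against 49.9 CPM in WT and 1944 against 255 in cKO, and was at 0 in 2 upper-class members of each library.

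Further genes stood higher in upper-class than in lower-class members, but were not particular to them. Ncam1, a neural cell adhesion molecule also made by epithelium, stood at 1139 against 63.0 CPM in WT and 1489 against 92.0 in cKO. Fst stood at 1260 against 63.0 and 773 against 43.3, and Ly6d, a GPI-anchored surface protein, at 1234 against 2.63 and 600.02 against 33.1. In upper-class droplets that were not members, Ncam1 stood at 687 and 874 CPM, Fst at 767 and 552 and Ly6d at 762 and 211. In other-class members Ncam1 stood at 274 and 468 CPM, Fst at 324 and 216 and Ly6d at 447 and 97.7. By the smaller of both libraries' ratios the leading upper-class genes were Igfbp5, Pthlh, Adamtsl1, Anxa8, Cdh13, Postn, Robo2, Atxn1, Krtdap and Sema3e. Igfbp5, an IGF-binding protein, had 53 and 63 UMIs in upper-class members against 0 and 3 in the lower class, with the upper-class UMIs in 6 droplets of each library. Pthlh, the parathyroid hormone-like peptide, was counted in 24 of 25 and 12 of 12 upper-class members and in 2 of 18 and 3 of 37 lower-class members. The suprabasal list stood at 1621 CPM against 113 in WT and 1471 against 135 in cKO, with Krtdap, a secreted protein of differentiating keratinocytes, at 722 against 5.25 and 658 against 26.7 CPM.

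Lower-class members stood higher in Ptch1 and in the lower follicle list, which set the class and holds Ptch1. The list stood at 1545 against 405 CPM in WT and 1936 against 404 in cKO. Ptch1, the Shh receptor and itself a Hedgehog target, was counted in all 18 and all 37 lower-class members. It ran from 2.06 to 18.1 and from 2.19 to 23.7 UMIs per 10000 and stood at 806 and 931 CPM. It was counted in 12 of 25 WT and 8 of 12 cKO upper-class members, at 193 and 283 CPM. The leading lower-class genes were Prss35, Fn1, Arg2, Ccbe1, Mtmr7, Col14a1, Slc7a2, Gxylt2, Gm16599 and Plk1. Prss35, a serine protease-like secreted protein, had 65 and 110 UMIs in the lower class and 0 in the upper class of either library. Fn1, fibronectin, had 104 and 161 UMIs against 2 and 0. Arg2, the mitochondrial arginase, had 23 and 99 against 0 and 0, and Slc7a2, a cationic amino acid transporter, 107 and 343 against 3 and 2.

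Proliferation genes also stood higher in lower-class than in upper-class members. The list of 50 G2 and M phase genes stood at 9954 CPM in WT lower-class members against 1928 in the upper class, and at 8055 against 2954 in cKO. In the other class it stood at 11556 and 7326 CPM, above the lower class in WT. Mki67, the Ki-67 antigen, stood at 607 against 47.5 CPM and 478 against 57.7. The list of 40 S phase genes stood at 4119 against 2241 and 4849.75 against 2215. After thinning to 2000 UMIs, at least 2 S phase UMIs were found in all 18 WT and all 37 cKO lower-class members, and in 12 of 25 (48.0%, 27.8 to 68.7) and 7 of 12 (58.3%, 27.7 to 84.8) upper-class members. Over all members the thinned share with at least 2 G2 and M phase UMIs was 88.7% in WT and 92.2% in cKO, against 88.9% and 87.7% of the other droplets. For S phase it was 74.2% (61.5 to 84.5) in WT against 81.3%, and 90.6% (80.7 to 96.5) in cKO against 85.8%. No member was assigned a phase.

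**Figure D3:**
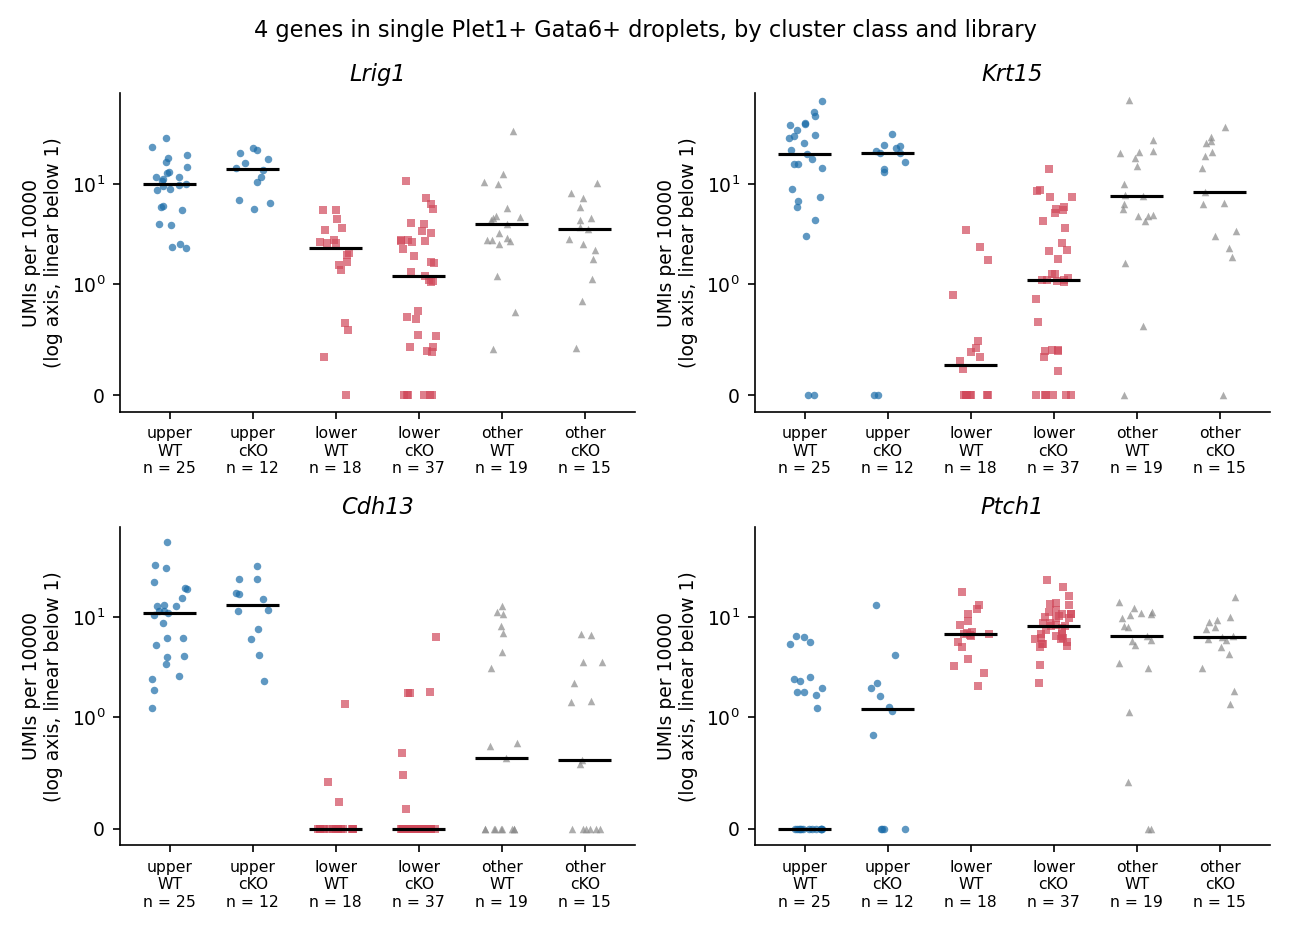
UMIs of 4 genes per 10000 UMIs of the droplet (y axis, log scale and linear below 1) in single Plet1+ Gata6+ droplets, by cluster class and library (x axis, number of droplets under each column), with the median as a black line. Cdh13 lies above 0 in all 25 and 12 upper-class members and Ptch1 in all 18 and 37 lower-class members, and Lrig1 and Krt15 overlap between classes. Lrig1, Krt15 and Ptch1 are in the lists that set the classes.

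Cdh13 and Ptch1 divided the members without a clean gap. Both genes were counted in 23 WT and 24 cKO members, Cdh13 alone in 15 and 4, Ptch1 alone in 24 and 36, and neither in none. The upper list per 10000 UMIs ran from 32.2 to 147 (median 69.1) in WT upper-class members and from 13.7 to 55.8 (median 26.9) in the lower class. The cKO ranges did not overlap, at 48.2 to 158 (median 66.9) and 3.04 to 43.5 (median 21.4). The other-class members lay between them in WT, at 10.8 to 109 (median 45.8), and near the lower class in cKO, at 10.1 to 65.9 (median 23.3). The doublet score marked 5 of the 19 other-class members in WT and 11 of the 15 in cKO. The part of doublets in these values was not tested.

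**Figure D4:**
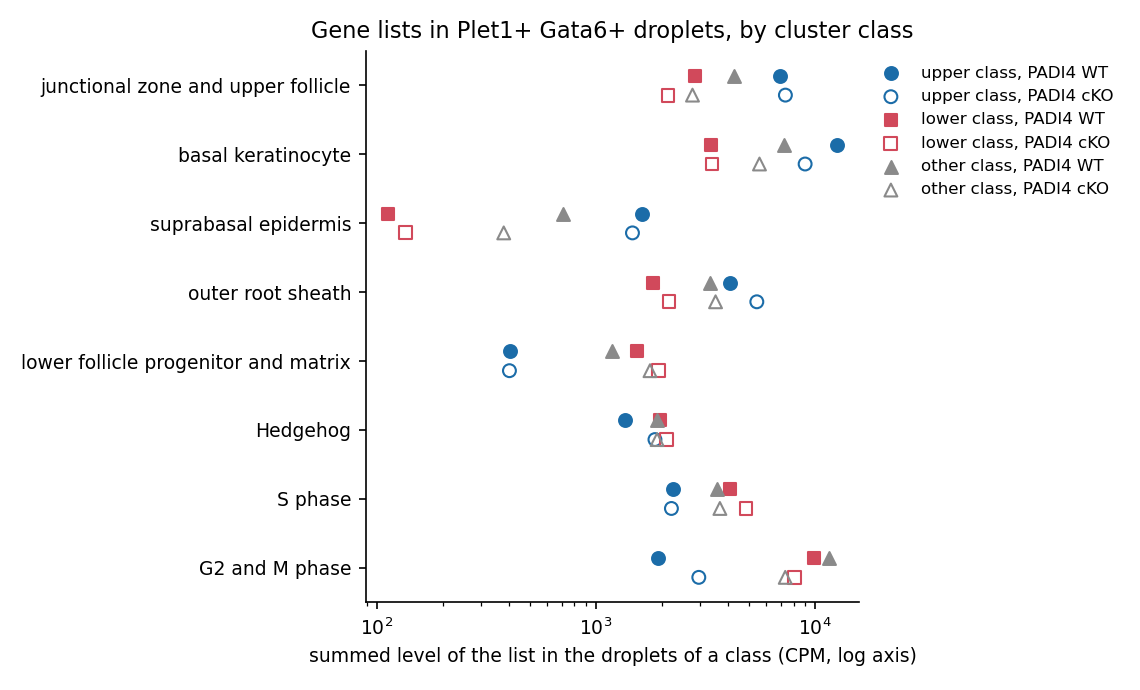
Summed level of 8 gene lists (rows) in CPM on a log axis in Plet1+ Gata6+ droplets of the upper class (blue circles), the lower class (red squares) and the other class (grey triangles), filled for the PADI4 WT library and open for the PADI4 cKO library. The junctional zone, basal and suprabasal lists are higher in the upper class of both libraries than in the lower class. The lower follicle, S phase and G2 and M phase lists are higher in the lower class than in the upper, with G2 and M phase highest in the other class in WT (11556 CPM). The cell type lists among the rows also set the classes.

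Against all other droplets, 111 of 13534 genes tested (0.82%) were higher in the members by more than log2 1 in both libraries and 260 (1.92%) were lower. Genes were tested with at least 100 UMIs over members and other droplets in each library. Where the members held at least 20 UMIs in each library, the counts were 29 higher and 12 lower. Calls were also made among unchanged genes in simulated data, but not at 20 member UMIs, so that calls on fewer UMIs lie within reach of counting error. The simulated data held counting error only and no variation between droplets. They therefore cannot clear the calls at 20 member UMIs of such variation. The median log2 over all genes tested was 0.04 in WT and 0.0021 in cKO.

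The 20 genes that stood highest came from both kinds of member. Lower-class members were the higher in both libraries for 8 of them (Mme, Gxylt2, Slc7a2, Prss35, Edn1, Map1b, Adamts9 and Chst2). Upper-class members were the higher for Adamts18, Slc22a4, Adamts17, Ly6d, Cdh13, Pthlh, Ptprz1 and Ncam1, and the libraries differed for St8sia2, Tle1 and Ston1. Of the 10 leading genes of cluster 6, 5 were among the 20 (Chst2, Edn1, Mme, Prss35 and Slc7a2).

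Among the lower-class genes, Mme, the cell-surface peptidase neprilysin, stood highest. It had 63 UMIs in 17 of 62 WT members (55.2 CPM against 17.2, log2 1.69, 1.29 to 2.04) and 160 UMIs in 35 of 64 cKO members (91.9 against 21.8, log2 2.08, 1.83 to 2.30). Gxylt2, a xylosyltransferase that extends O-glucose on Notch, stood at 34.2 against 9.66 CPM (log2 1.84) and 41.9 against 14.3 (log2 1.57). Slc7a2 stood at 121 against 48.6 CPM (log2 1.32) and 220 against 67.8 (log2 1.70). Edn1, which encodes the peptide endothelin-1, gave log2 1.23 and 1.09, Chst2, a sulfotransferase of glycans, 1.51 and 1.08, and the matrix protease Adamts9 1.09 and 1.22.

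Among the upper-class genes, Cdh13 stood at 414 CPM against 134 in WT (log2 1.63, 1.498 to 1.76) and 209 against 99.6 in cKO (log2 1.07, 0.92 to 1.22). Ncam1 gave log2 1.49 and 1.03, Pthlh 1.80 and 1.04, and Ly6d 1.70 and 1.08. Adamts17, a secreted metalloprotease, was the most abundant of the 20 at 725 CPM against 290 in WT and 759 against 356 in cKO, and was counted in 50 of 62 and 60 of 64 members. Single droplets weighed on some of these values. One droplet held 58.0% of the cKO UMIs of Adamts18 and another 37.2% of those of Ptprz1. Among cKO members with no Pparg, Aldh3a1 or Acsbg1 UMI, of which 1 in 39 is in the upper class, Cdh13 gave log2 -1.46, Ly6d -1.31 and Pthlh -1.52.

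The genes that stood lowest included inner root sheath keratins, and Dcn and Cldn10, which are among the leading genes of lower-class clusters. Krt28, an inner root sheath keratin, had 12 UMIs in WT members (10.5 CPM against 382, log2 -5.12) and 179 in cKO members (103 against 391, log2 -1.92). Krt25 gave log2 -5.24 on 3 UMIs and -2.92 on 21. Dcn, the proteoglycan decorin, was steady between libraries at 119 CPM against 679 (log2 -2.51) and 143 against 722 (log2 -2.33). Mgst1, a microsomal glutathione transferase abundant in sebocytes, gave -1.98 and -2.90. Prnp, Cldn10, Mt4, Cdh6 and Gm49425 were also among the 10.

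**Figure D5:**
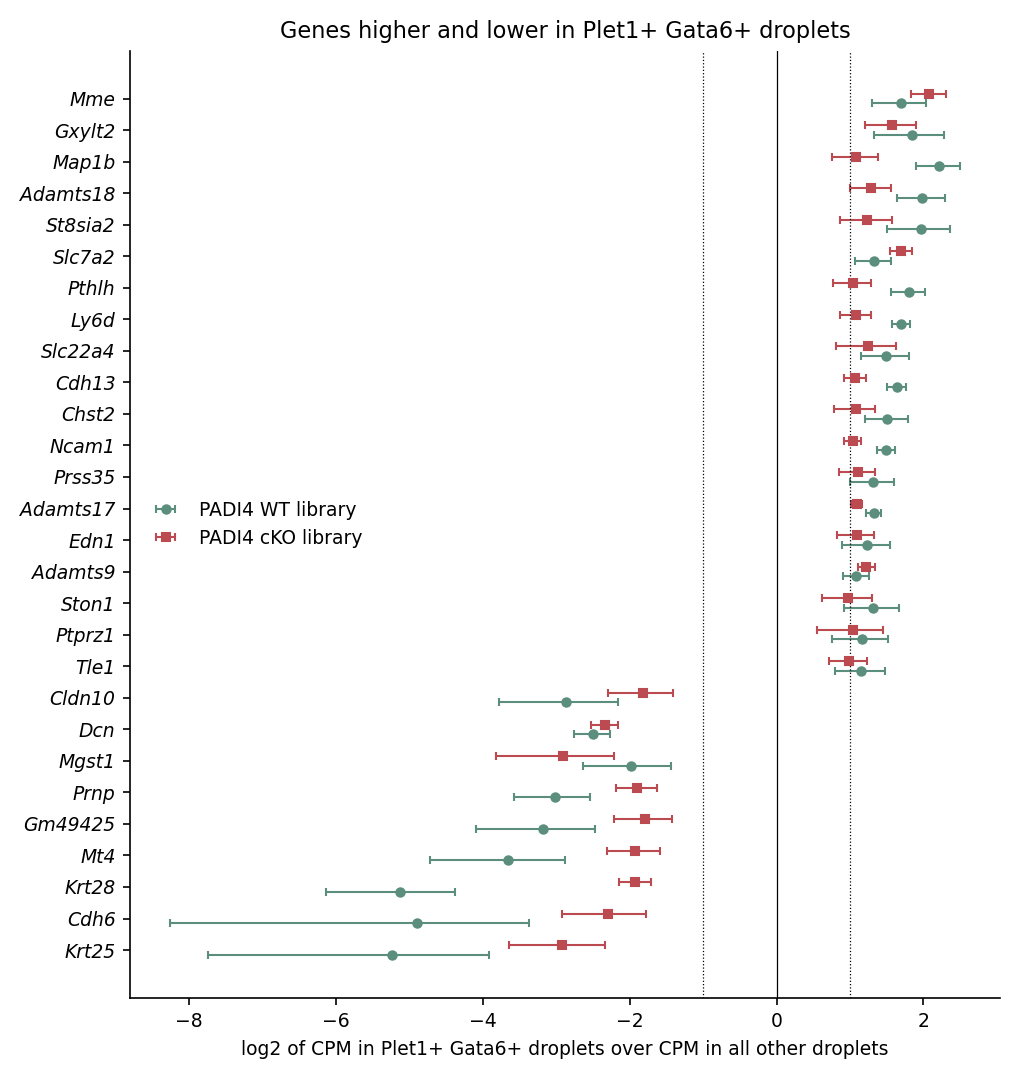
Log2 ratio of CPM in Plet1+ Gata6+ droplets over CPM in all other droplets (x axis) for 19 of the 20 highest and 9 of the 10 lowest genes (rows), PADI4 WT library in green circles and PADI4 cKO library in red squares, with exact conditional 95% intervals for counting error and dotted lines at log2 1 and -1. Ratios of the higher genes lie between 0.98 and 2.22 and the lowest reach -5.24 for Krt25 in WT.

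Most inner root sheath and hair shaft genes tested were lower in members, while basal and suprabasal genes were mostly not called. The suprabasal list stood at 764 CPM in WT members against 544 in the rest (log2 0.49, 0.39 to 0.59) and at 336 against 398 in cKO (log2 -0.24, -0.36 to -0.12). The basal list (13 genes tested) had no gene past log2 1 in both libraries, with medians of 0.59 in WT and 0.04 in cKO, and Krt5 and Krt14, the paired basal keratins, gave 0.56 and 0.59 in WT and 0.0036 and 0.04 in cKO. Of 7 inner root sheath genes tested 5 were lower in both libraries, of 5 hair shaft genes 3, and of 3 companion layer genes Krt75 alone. None of 4 simple epithelium keratins passed, and over all genes tested 1.92% were lower. The whole hair shaft list held 18 UMIs in WT and 130 in cKO members, and the companion list 24 and 6. Calls in these lists thus rest on few UMIs in at least 1 library. Of 11 sebocyte genes Mgst1, Far2 and Soat1 were lower, and the rule itself set a limit on 3 sebaceous genes. Of 11 ORS genes Lmo3 alone was lower, while Lhx2, a transcription factor of follicle progenitors, gave 0.48 and 0.60 and Nfatc1 0.84 and 0.39.

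The lower follicle list divided. Of 12 genes tested Npr3, a natriuretic peptide clearance receptor, was higher (log2 1.16 and 1.27, on 22 and 46 UMIs) and Msx1, a homeobox gene of the matrix, was lower (-5.38 and -1.03, on 2 and 92 UMIs). Ptch1 gave 0.37 and 0.58, Edar, the receptor of ectodysplasin, 0.39 and 0.88, and Lef1 -1.53 and -0.73. Shh had 8 UMIs in WT members and 76 in cKO members, with log2 -2.86 and -0.52. Of 11 Hedgehog genes tested only Hhip was past log2 1, lower at -1.16 and -1.35 on 3 and 7 UMIs. Among all genes tested 0.82% were higher and 1.92% lower.

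The signalling lists held few called genes outside the Notch and retinoid lists. Of 10 Notch genes tested Notch1, the receptor of differentiating layers, was lower (log2 -1.49 on 58 UMIs and -1.75 on 65), as were Notch3 and Heyl on 6 and 1 UMIs and on 1 and 1. The summed Notch list stood at log2 -0.36 (-0.49 to -0.23) in WT and -0.42 (-0.54 to -0.31) in cKO. Of 21 Wnt genes Wnt11 and Nkd2 were lower, and Wnt7b gave 1.60 and 0.89. None of 20 BMP and TGF-beta genes and none of 16 genes of the EGF receptor family passed log2 1 in both libraries, with Bmpr1b at 1.47 and 0.90 and Egfr at -0.65 and -0.34. Of 15 retinoid and vitamin D genes Rdh12, Stra6 and Cyp24a1 were lower, on 2 UMIs or fewer each. Over all genes tested, the shares were 0.82% higher and 1.92% lower.

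Of 26 epithelial transcription factors tested, Grhl3, Ovol1, Hopx and Zfp750 were lower in both libraries, with Hopx, a homeodomain-only protein, at -1.71 and -1.41 on 64 and 117 UMIs and Ovol1, a zinc finger repressor, at -2.23 and -1.25. None was higher, and the list stood in sum at 4818 against 4536 CPM in WT and 4485 against 4455 in cKO, with medians of log2 0.11 and -0.17. Ovol2 gave 0.72 and 0.72 and Tfap2b 0.72 and 0.44. In the desmosome list Dsg1a and Dsc1, the suprabasal cadherins, were lower among 13 genes tested. Cldn4 was lower in the claudin and junction list, as were Lcn2 and Sprr1a of 6 antimicrobial genes and Nlrc5 of 12 MHC class I genes, while none of 20 immediate early genes, of 40 S phase or of 50 G2 and M phase genes passed log2 1. Of 13 suprabasal genes Klk5, a kallikrein peptidase, was higher on 7 and 5 UMIs, and Dsg1a and Dsc1 were lower. Beside these counts stand shares of 0.82% higher and 1.92% lower over all genes tested. Zfp750 rested on 4 and 3 member UMIs.

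Markers of other cell types were at or near 0. Immune markers had no UMI in WT members and 1 in cKO members, Merkel cell and erythroid markers none in either, and endothelial markers 3 and 1, with no gene called among the 2 tested. The fibroblast list stood at 19.3 and 12.1 CPM in members against 35.3 and 33.5 in the rest. Pdgfra had 0 and 1 UMI, and 3 of 5 fibroblast genes were lower. The melanocyte list stood at 11.4 and 13.8 against 56.6 and 34.6, with Mlana, Tyr and Tyrp1 at 0. With Pmel these made up the 4 of 5 tested melanocyte genes that were lower, beside 1.92% lower over all genes tested.

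Compared within each class, fewer genes passed log2 1 in the upper class than in the lower. Against the other upper-class droplets 57 of 9790 genes (0.582%) were higher past log2 1 in both libraries and 121 (1.24%) lower. With at least 20 member UMIs in each library the counts were 4 and 1 of 1696. The 20 genes named above were picked for their ratios in these same members, so their within-class values are a description. Of them, Pthlh alone passed log2 1 in the upper class (1.00 and 1.05), and their median was 0.26 in WT and 0.32 in cKO. Lrig1 gave 0.19 and 0.63 and Fst 0.72 and 0.49.

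In the lower class 187 of 11395 genes (1.64%) were higher and 245 (2.15%) lower, with 58 and 12 of 3744 at 20 member UMIs. Of the 20 named genes, picked from ratios that include these members, 14 passed log2 1 in both libraries, with medians of 1.87 and 1.36. Lrig1 stood at 226 CPM against 74.96 (log2 1.60) in WT and 215 against 82.4 (log2 1.39) in cKO. Lgr6 gave 1.42 and 0.95, Krt17 1.54 and 1.03, and Mme 2.10 and 1.92. Dcn was lower at -3.07 and -3.17. In the other class 161 of 12377 (1.3%) were higher and 251 (2.03%) lower, and Fst stood at 324 against 81.9 CPM and 216 against 49.5. These within-class ratios mix the clusters of a class, since 12 of the 18 WT and 18 of the 37 cKO lower-class members came from cluster 6. Cluster 6 as a whole held Lrig1 at 293 and 292 CPM, above the 226 and 215 of the lower-class members. Every other lower-class cluster held less, down to 5.36 and 3.96 CPM in cluster 9. Mme is itself a leading gene of cluster 6.

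Beside the droplets that each limit of the rule set apart, the members differed in different genes. The nearest set, droplets with at least 2 Plet1 UMIs that met every limit but had no Gata6 UMI, differed least. Over these, 14 of 9780 genes (0.143%) were higher and 55 (0.562%) lower. The 5 highest were Mme (log2 1.46 and 1.62), Whrn (1.39 and 1.60), Gxylt2 (1.35 and 1.39), Car12, a carbonic anhydrase (1.13 and 1.07), and Npnt, the integrin ligand nephronectin (0.99 and 1.27). Lrig1 gave 0.25 and -0.09 and Plet1 0.15 and -0.18. The 5 lowest included the inner root sheath keratin Krt71 (6.13 CPM against 131, and 3.45 against 30.7), Zfp750 and Foxn1, a regulator of hair keratins, with Rhov and D7Ertd443e.

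Over the Plet1 and Gata6 droplets left out for Krt79, 145 of 4018 genes (3.61%) were higher and 83 (2.07%) lower. Col14a1, a fibril-associated collagen, stood at 262 CPM in WT members against 14.2 (log2 4.16) and 268 against 15.3 in cKO (log2 4.08). Prss35 gave 3.93 and 4.15, Slc7a2 2.95 and 3.47, and Tagln, an actin-binding protein, 3.76 and 2.70, while Chst2 had 99 and 113 UMIs against 3 and 1. Lower were Sdr16c6, a short-chain dehydrogenase (4 UMIs against 279, and 2 against 323), the calmodulin-like Calm4, Mgst1, the cysteine protease inhibitor Cst6 and the prolactin receptor Prlr (-3.23 and -4.97). Lrig1 was higher in the droplets left out, at 828 CPM against 526 in WT and 924 against 403 in cKO. Upper-class members alone held Lrig1 at 984 and 1494 CPM, Col14a1 at 15.8 and 11.5, Slc7a2 at 9.50 and 11.5 and Prss35 at 0. The droplets left out held Slc7a2 at 15.2 and 19.4 CPM and Prss35 at 5.08 and 4.09. The part of the class mix in these ratios was not tested.

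Over the droplets left out for the sebaceous genes, 100 of 4952 genes (2.02%) were higher and 88 (1.78%) lower. Prss35 (log2 3.66 and 2.98), Chst2, Slc7a2, Col14a1 (2.44 and 2.47) and Edn1 were again the highest, and Sdr16c6, Mgst1, Prlr, Gm12068 and Sema3a the lowest. Lrig1 stood at 949.5 CPM in these droplets in WT and 977 in cKO, beside 984 and 1494 CPM in upper-class members. Both left-out sets share droplets and the members, so the comparisons are given side by side and not against each other. Against ORS droplets 83 of 10782 genes (0.77%) were higher and 219 (2.03%) lower. Mme (2.72 and 2.38), Adamts9 (2.49 and 2.34), Whrn, Gxylt2 and Slc7a2 were highest, and Galntl6, Ebf1, Ptchd4, Ptger1 and Pdlim3, with 3 member UMIs or fewer each, were lowest.

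The most variable genes of the members stood higher in the upper class. With 5000 UMIs drawn from each, the median variance over mean of a gene was 1.13 in WT and 1.09 in cKO. The 10 most variable genes were Apoe, Robo2, Gm42418, Adamtsl1, Csgalnact1, Malat1, Krt17, Igfbp5, Auts2 and Cdh13. Apoe, the lipid carrier apolipoprotein E, reached a ratio of 32.3 in WT and 17.8 in cKO and ran from 1.04 to 217 per 10000 UMIs in WT members, with 5754 CPM in the upper class and 473 in the lower. Robo2, an axon guidance receptor, was at 0 in 30 members of each library and reached 82.2 and 79.3 per 10000. Gm42418, which overlaps ribosomal RNA sequence, and the nuclear RNA Malat1 were among the 10, at ratios of 19.5 and 12.6 in WT. All 10 stood higher in the upper class than in the lower in both libraries, with Gm42418 at 2839 against 2225 CPM in WT and 3127 against 2697 in cKO.

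Between genotypes, a larger share of genes passed log2 0.5 in the members than in the other droplets. Of 5234 genes with at least 100 UMIs in the members, 317 (6.06%) were above log2 0.5 in the library labelled cKO over WT and 384 (7.34%) below -0.5. In the other droplets, the same genes gave 0.344% and 0.382%. Few UMIs widen the members' values, with a median interval width of 0.82 on the log2 scale for the members and 0.17 for the genes tested in the other droplets, and the mix of classes differed, with 25 against 12 upper-class and 18 against 37 lower-class members. With 1 library per genotype these are differences of libraries.

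The basal, upper follicle, lower follicle and S phase lists moved in the direction of that mix and the G2 and M phase list against it, and its part in them was not tested. Of 13 basal genes 9 were lower in cKO members (median log2 -0.70) and of 5 upper follicle genes 3 were lower (median -0.68). Of 6 lower follicle genes 4 were higher (median 0.80), and of 36 S phase genes 6 were higher (median 0.34), while 3 of 45 G2 and M phase genes were lower (median -0.21) and that list stood at 7346 CPM in cKO against 8357 in WT members. The median of all genes tested was 0.0055. Lrig1 itself was at 403 CPM in cKO and 526 in WT members (log2 -0.38, -0.54 to -0.22), but at 1494 and 984 in the upper class and 215 and 226 in the lower class. The upper class differed in its clusters, with 14 WT members and 1 cKO member in cluster 11 and 9 of each library in cluster 3. As whole clusters, cluster 11 held Lrig1 at 697 CPM in WT and 814 in cKO, and cluster 3 at 1085 and 1118. The part of this mix was not tested.

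The 5 highest genes in cKO members were Krt35, Krt28, Gm10260, Ism1 and Mycl. Krt35, a hair shaft keratin, had 116 UMIs in cKO and 5 in WT members, with 61.2% of the cKO UMIs in 1 droplet. Krt28 had 179 and 12 UMIs (log2 3.23, 2.45 to 4.27), against log2 0.03 in the other droplets. Gm10260 gave 3.02 in members and 3.57 in the other droplets, so that it differed alike in the rest of the libraries. The 5 lowest were Stfa3, Cstdc5, Gm8797, Ccl27a (ENSMUSG00000073888, since 3 gene IDs of the table share that symbol) and Palld. Stfa3, a stefin protease inhibitor, had 1 UMI in cKO and 221 in WT members, 195 of the latter in the upper class, and its log2 in the other droplets was -3.50. Cstdc5, another cystatin-like gene, had 5 and 159, with -3.42 in the other droplets. Ccl27a, a skin chemokine, gave -2.85 in members and -0.66 in the others. Palld, an actin-bundling protein, gave -2.42 and -0.41.

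Sex differed between the libraries. Of WT members 49 of 62 (79.03%) had Y-linked UMIs and no Xist and 6 (9.68%) had Xist alone, beside 62.0% and 26.0% of the other WT droplets. Of cKO members 63 of 64 had Xist alone and none had Y-linked UMIs alone. Sex thus largely went with genotype, and the 6 WT members with Xist alone leave little to compare. Among droplets with Xist alone, 6 WT and 63 cKO members remained, and 760 of 3583 genes lay above and 521 below.

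The Padi genes, which encode enzymes that convert arginine to citrulline, were close to absent from the members. Padi3, the family member best known from the hair follicle, had UMIs in 3 of 62 WT members (4.84%, 1.01 to 13.5) and 3 of 64 cKO members (4.69%, 0.977 to 13.1), against 5.21% and 4.30% of the other droplets. Padi1 was found in 0 and 2 members, Padi4 in 1 and 1, and Padi2 and Padi6 in none, which allows a share of up to 4.84% of WT and 4.69% of cKO members with a UMI. No difference of any Padi gene between members and other droplets was detectable at this depth.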

How the data were processed

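Chromium 3′ v3.1 libraries of sorted tdTOMATO-positive cells were used, 1 per genotype. The authors deposited raw UMI counts per gene and barcode, unfiltered and not normalized, written by Cell Ranger 7.1.0 per the file headers; mm10 and Scanpy are named in the submitters' processing notes. Each matrix held 32285 genes, with 1786872 (WT) and 1787390 (cKO) barcodes. The study's CellBender filtering, cell cycle correction with harmony and removal of fibroblast, melanocyte and mixed clusters were not repeated, and its methods as read here name no doublet caller. Samples were grouped by the genotype label.

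UMIs were summed per library and set of droplets and given as CPM with exact Poisson intervals. Ratios are log2 with 0.5 UMI added, with exact conditional binomial intervals, and shares have Clopper-Pearson intervals. UMIs come from reads of PCR products, and all intervals cover counting error only. A count of 0 was given a limit of 3 counts. Genes were called past log2 1 in both libraries (members against other sets) or past 0.5 (cKO over WT). Both libraries were thinned to 2000 UMIs for shares and 5000 for variation, where 1 shallower cKO member was left out. Droplets were clustered together (1000 most variable genes without the rule genes, 30 principal components, 15 neighbours, Leiden at resolution 1.0; scikit-learn 1.9.0, leidenalg 0.10.2, SciPy 1.17.1, NumPy 2.4.6, Python 3.11.15). A list gene counted as raised in a cluster at 1.5 times the rest and 5 CPM over both libraries. A doublet score from simulated pairs was cut at the top 6% of each library and marked 5.97% and 5.80% of droplets. The cut set these shares, which do not estimate a doublet rate, and part of the simulated pairs stayed under it. None of the marked droplets was removed. 

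Named genes were the 8 rule genes and Lrig1; the 20 highest (at least 100 member UMIs, ranked by the smaller ratio of the libraries) and 10 lowest (at least 50 CPM in other droplets); 5 each way per comparison set and for cKO over WT; the 10 with highest variance over mean; and up to 6 genes of each of 31 lists. Class-leading genes, the classes and the within-class comparison were chosen after the data were seen. The members and lists were chosen with earlier results of these data known. The procedure was tested on simulated data drawn from the real sums with known changes and with counting error only. For 2 of the named genes no result is reported here. In all, 20 planned and 4 later alternatives were run.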

Additional observations from a re-analysis of the deposited data

How the results depend on the processing

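All values of the report rest on 1 library per genotype. Members were chosen on 1 or 2 UMIs of a gene, 0.462% to 1.11% of droplets met the rule over the WT depth bins and 0.257% to 2.26% over the cKO bins, and genes with few member UMIs can pass log2 1 by counting error. No paired analysis was possible because there is 1 library per genotype, and for the same reason none could be left out. The cause of the changes below was not tested. With Plet1 at 3 UMIs the members were 0.277% (WT) and 0.282% (cKO) of droplets, Lrig1 was in 100% of WT members, 293 genes were higher than in other droplets, and 175 and 157 were above and below in cKO over WT. With Plet1 at 1 UMI the shares were 1.69% and 1.89%, with 56 genes higher. With Gata6 at 2 UMIs they were 0.219% and 0.282%, with 253 higher and 184 and 185 in cKO over WT, and Slc22a4 (-0.11), Ly6d (-0.97), Cdh13 (-0.83), Pthlh (-0.10), Ptprz1 (-0.49) and Ncam1 (-0.58) turned lower in cKO members. With Krt79 at 0 the shares were 0.439% and 0.501%, 97.4% of cKO members had at least 2 G2 and M phase UMIs after thinning, 203 genes were higher, 219 below in cKO over WT, and Ptprz1 was at -0.30 in cKO. With the sebaceous genes at 0 they were 0.369% and 0.501%, with 174 higher and 219 below, and Adamts18 (-1.07), Slc22a4 (-0.0014), Ly6d (-1.31), Cdh13 (-1.46), Pthlh (-1.52) and Ncam1 (-0.25) turned lower in cKO. Among droplets with Xist alone 0.268% of WT droplets were members, 83.3% of these had Lrig1, and 47 genes were higher and 143 lower. There 760 of 3583 genes (21.2%) were above in cKO over WT, on 6 WT members. Of the named genes, Slc22a4 was at -1.52 there in WT and Ly6d at -0.031. A minimum of 50 UMIs per gene gave 240 higher, with 588 and 789 in cKO over WT, and a minimum of 500 gave 35 and 108, with 36 and 43. Adding 5 UMIs to both sums gave 1897 higher and 27 lower, since it raises the smaller set of droplets more. Thinning to 5000 UMIs before the rule gave 0.166% and 0.121%. The remaining alternatives were added after the data were seen. With at least 20 member UMIs the counts were 29 and 12. With an upper limit of 30000 UMIs the cKO share was 0.597%. With members of clusters 3, 10 and 11 only, Lrig1 was in 100% of both, G2 and M phase UMIs in 72% of WT members, 1120 genes were higher and 589 lower, 132 above and 73 below in cKO over WT. Lower in WT and cKO were then Mme (-1.89, -0.66), Gxylt2 (-2.65, -2.34), Slc7a2 (-2.15, -2.28), Prss35 (-4.46, -3.75), Edn1 (-1.99, -2.10), Adamts9 (-0.0023, -1.86) and Chst2 (-0.84, -3.44). With lower-class members only, G2 and M phase UMIs were in 100% of WT members, 201 genes were higher and 629 lower, and 181 below in cKO over WT. Lower were then Ly6d (-5.37, -0.63), Cdh13 (-3.53, -1.28), Pthlh (-2.65, -1.58), Ptprz1 (-0.077, -0.50) and Ncam1 (-1.32, -0.85) in WT and cKO, Slc22a4 (-1.14) in WT and Adamts18 (-1.36) in cKO. Over the settings, the log2 of a named gene against other droplets turned in 41 cases as listed, moved by more than its counting interval in 327, of which 322 kept the sign, and stayed within it in 810, and for cKO over WT it moved in 34 and stayed in 138, with the sign kept in all.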
